A study of Mus musculus with 24 samples.

Results

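The replication-dependent histone genes of mouse chromosome 13 were taken as every histone gene, by current or older symbol, lying between 21.7 and 23.7 Mb on the mm10 build. The RefSeq table for that build held 44 such genes, 43 protein-coding genes and the pseudogene H2ac14, set against 21887 protein-coding genes in all. They comprised 4 genes for the linker histone H1, 12 for H2A, 13 for H2B, 6 for H3 and 9 for H4. The 44 genes lay in 2 stretches. A proximal stretch of 24 genes ran from H2bc13 to H2bc11 (chr13:21715711-22043658), and a distal stretch of 20 genes ran from H4c8 to H4c3 (chr13:23531044-23698458). A gap of 1487 kb without histone genes separated them. The median gene span was 487.5 bp, but RefSeq gave 5 H2B genes (H2bc22, H2bc23, H4bc24, H2bc6 and H2bc4) spans above 3 kb, up to 37455 bp for H2bc6. H4bc24, older name Hist1h2br, was counted as an H2B gene. No histone gene of chromosome 13 lay below the window, where H2bc13 and H2ac13 were the first members. At the upper limit H1f6 and H4c3 were the last members, H1f2 and H3c3 the first genes outside, and 11 protein-coding histone genes, these 2 included, lay above it.

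Replication-dependent histone genes supply the histones that package newly copied DNA. They are transcribed mainly in S phase, usually lack introns, and give messenger RNAs that end in a stem-loop in place of a poly(A) tail. Many H2A and H2B genes sit head to head and share a promoter. Clustered histone genes gather the coactivator Npat and RNA processing factors in a nuclear body, the histone locus body. Chromatin condenses and most transcription stops in mitosis.

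Peaks of 4 antibodies had been mapped by chromatin immunoprecipitation and sequencing (ChIP-seq) in V6.5 mouse embryonic stem cells of C57BL/6-129 background. Klf4, Oct4 and Sox2 are transcription factors that maintain pluripotency, and H3K27ac, histone H3 acetylated at lysine 27, marks active promoters and enhancers. The 16 lists used here covered asynchronous cells (3 libraries for Klf4, 1 for Oct4, 1 for Sox2, 2 for H3K27ac) and cells arrested with nocodazole for 7 h, at a labelled 100 ug/ml, and shaken off in mitosis (3, 2, 2 and 2 libraries). All cells had been grown on irradiated feeders with LIF and serum and then without feeders, on gelatin with inhibitors of MEK and Gsk3. Nothing in the labels stated that replicates were separate cultures, so each p-value measures only the spread between these libraries. Asynchronous cells include cells in every phase, and no library of cells in S phase, when these genes are transcribed, was among them.

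A histone gene was scored as having a peak when the midpoint of a listed peak lay in its span or within 2 kb. Neighbouring genes often shared a peak, since the windows of the 44 genes merged into 15 loci. The lists gave no read depth. Histone genes of a class are near-identical in their coding sequence, and the handling of reads that match several copies was not given in the sources used here. Promoters can be copies too: of the 250 bases before the start, H4c17 and H4c18 share a run of 249, shifted by 1 base. Every value at a single copy is therefore uncertain in that respect. Stem cell markers had H3K27ac peaks at 9, 9, 9 and 10 of 10 genes over the 2 asynchronous and 2 mitotic lists, against 2, 1, 1 and 0 of 8 fibroblast markers and 4, 4, 3 and 2 of 6 neural progenitor markers.

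Promoters of 3 H4 genes with Klf4 peaks, of an H3 gene with an Oct4 peak, and of an H2A and an H2B gene are shown first, because the classes differ in the short motifs they hold. Each line gives the 150 bases before the RefSeq start site (GRCm38.p6), 5′ to 3′ in the direction of the gene. Capitals mark matches, on either strand, to the CCAAT box, to the letters TATAAA, to the octamer ATTTGCAT and to the Klf-type motif GGGNGTGG.
H4c17, chr13:21811596-21811745, plus strand, an H4 gene with a Klf4 peak in 4 of 6 lists: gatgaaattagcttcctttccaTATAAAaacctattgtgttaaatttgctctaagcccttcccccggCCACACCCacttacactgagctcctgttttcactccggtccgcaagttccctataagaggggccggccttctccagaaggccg
H4c18, chr13:21832198-21832347, minus strand, an H4 gene with a Klf4 peak in 3 lists: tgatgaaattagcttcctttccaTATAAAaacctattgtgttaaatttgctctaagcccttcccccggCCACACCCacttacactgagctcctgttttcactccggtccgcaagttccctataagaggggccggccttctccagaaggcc
H4c6, chr13:23551669-23551818, minus strand, an H4 gene with a Klf4 peak in 4 lists and no match: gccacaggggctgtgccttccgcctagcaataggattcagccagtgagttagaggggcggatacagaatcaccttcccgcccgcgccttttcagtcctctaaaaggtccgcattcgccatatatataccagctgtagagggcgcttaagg
H3c10, chr13:21717478-21717627, plus strand, an H3 gene under an asynchronous Oct4 peak: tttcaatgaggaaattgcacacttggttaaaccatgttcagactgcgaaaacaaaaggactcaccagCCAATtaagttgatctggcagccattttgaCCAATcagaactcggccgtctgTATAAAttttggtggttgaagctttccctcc
H2ac13, chr13:21716262-21716411, plus strand, an H2A gene head to head with H2bc13: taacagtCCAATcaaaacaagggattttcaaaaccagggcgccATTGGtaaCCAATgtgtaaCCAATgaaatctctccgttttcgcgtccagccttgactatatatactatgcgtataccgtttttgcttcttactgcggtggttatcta
H2bc14, chr13:21721894-21722043, plus strand, an H2B gene with the octamer and high H3K27ac: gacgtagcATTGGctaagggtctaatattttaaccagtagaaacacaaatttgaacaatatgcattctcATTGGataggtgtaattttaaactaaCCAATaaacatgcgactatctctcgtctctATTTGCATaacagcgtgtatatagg

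CCAAT boxes were a shared feature of the cluster outside the H4 class. RefSeq promoters, 250 bases before to 50 after the start, were present for 41 of the 44 members (not H2ac14, H3c7 and H2bc4). CCAAT was in 34 of the 41, or 82.9%, against 39.0% of 17492 promoters of all protein-coding genes. It was in every promoter of the H1 (4 of 4), H2A (11 of 11), H2B (12 of 12) and H3 classes (5 of 5), but in 2 of 9 H4 promoters, those of H4c3 and H4c4. The sequence TATAAA was in 24 promoters, 58.5% against 13.3% of all genes. The octamer, which the POU factors Oct1 and Oct4 can bind, was in 6 promoters (14.6% against 1.71%), 3 of H2A and 3 of H2B genes. The Klf-type motif was in 4 promoters, 9.76% against 19.2% of all genes, those of H4c17, H4c18, H4c3 and H3c4. ACAATG, a Sox-type motif, was in 4 promoters (9.76% against 11.4%). Head-to-head genes share part of their promoters, so these counts are not over independent sequences.

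H3K27ac was present throughout the cluster in both states. Peaks lay at 44 and 44 of the 44 genes in the asynchronous lists, where 60.7% and 60.3% of all protein-coding genes had one. In the mitotic lists they lay at 44 and 43 genes, against 54.3% and 51% of all genes. Each of the 44 had a peak in some list, as did 66.4% of all genes. All 4 lists had a peak at 43 of the 44 genes (97.7%), against 45.5% of all genes. The exception was H1f4, a linker histone gene, which had no peak in the second mitotic list. The excess of the histone genes over all genes was 39.5 ± 0.313 percentage points in asynchronous cells (SD, n = 2) and 46.2 ± 0.787 in mitotic cells (SD, n = 2). The difference was 6.71 points, with all genes at 60.5% and 52.7% in the 2 states and the histone genes at or within 1 gene of 100% in each list. The excess depends on how a peak is assigned to a gene. With midpoints inside the span only, a rule that a wide peak over a short gene need not meet, the member share less that of all genes was −12.8 and −21.9 points in the asynchronous and 2.66 and 3.93 in the mitotic lists. A peak overlapped the span itself at 43, 43, 43 and 41 members, against 58.6%, 58%, 51.8% and 48.6% of all genes. The difference of 6.71 points had an exact two-sided permutation p of 0.333, the smallest that 2 against 2 libraries can give. The sample titles name 1 project for both asynchronous and another for both mitotic H3K27ac libraries, so state and project cannot be told apart in any H3K27ac comparison.

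**Figure D1:**
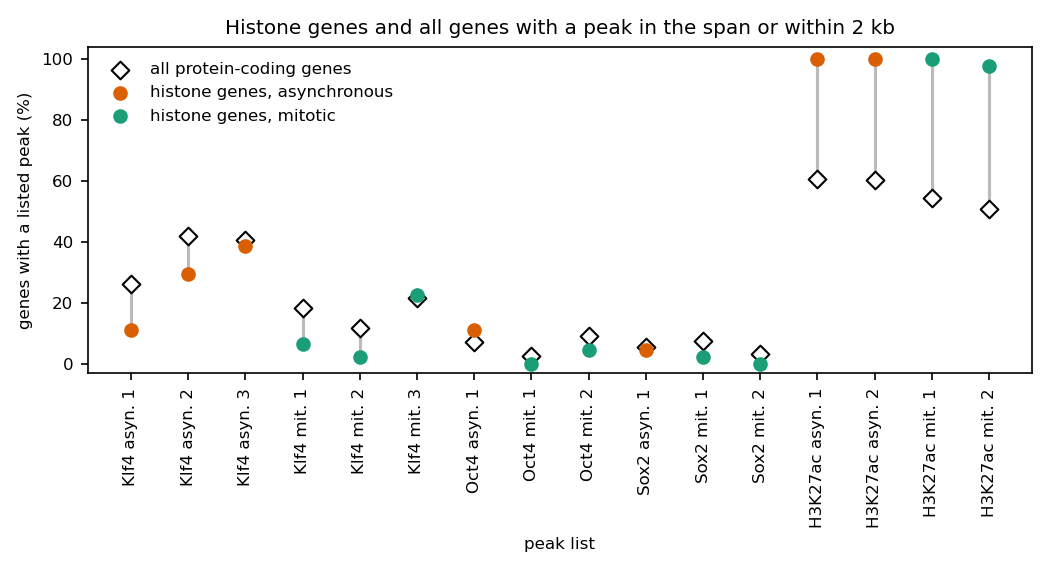
Percent of genes with a listed peak (vertical axis, 0 to 100%) in each of the 16 lists (horizontal axis), for the 44 histone genes (filled circles, coloured by state) and all protein-coding genes (open diamonds). The histone genes lie near 100% in all 4 H3K27ac lists, while in the 12 factor lists they lie between 0% and 38.6%.

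The strongest acetylation within 2 kb of a member was reached at 4 pairs of neighbouring genes. Strength is given as the percentile of a peak's deposited fold within its own list. The 8 genes with the highest mean over both asynchronous lists were H2ac10 and H4c8 (97.1), H2ac12 and H2bc12 (96.4), H2ac14 and H2bc14 (96.1), and H2bc9 and H3c7 (96.1). Each pair shared its strongest asynchronous peak, which need not overlap both genes. The peaks overlapping the H2bc12 span were at percentiles 89.3 and 84.5, and those overlapping H2bc9 at 83.2 and 75.0, since the shared peak overlapped H2ac12 and H3c7. At H2ac10 and H4c8 that peak had folds of 24.8 and 27.9 in asynchronous cells. At H2bc9 and H3c7 the shared peak had folds of 24.6 and 23.3 in the asynchronous lists, then 14.5 and 11.2 in the mitotic ones. Folds of the whole lists were also lower in mitosis, with 90th percentiles of 16.5 and 15.8 against 10.7 and 11.2. On the lists of equal length described below, the percentiles at this pair were 94.1 and 94.1 against 94.7 and 89.9, so the states overlapped. Over all members with a peak, the median percentile was 93.6 and 93.2 in the asynchronous and 84.5 and 82.5 in the mitotic lists. The medians over all genes with a peak were 80.6, 80.2, 76.5 and 73.0. The member median was above that of all genes with a peak in each of the 4 lists.

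The lead of the histone genes over other acetylated genes was smaller in both mitotic than in both asynchronous lists, a difference that 2 against 2 libraries cannot establish. To compare ranks, each H3K27ac list was reduced to its 30771 strongest peaks by the deposited −log10 p, the length of the shortest list. On these lists the median member percentile was 90.1 and 89.9 in asynchronous cells and 81.6 and 82.5 in mitotic cells. The medians over all genes were 74.6, 74.5, 74.1 and 73.0. The lead was 15.4 ± 0.108 percentile points in asynchronous cells (SD, n = 2) and 8.56 ± 1.41 in mitotic cells (SD, n = 2). The difference was −6.88 points (exact two-sided permutation p = 0.333, the smallest possible). Both mitotic values lay below both asynchronous ones at 27 of the 42 members with a peak in all 4 reduced lists (64.3%). The same held for 43.5% of 9367 genes with such peaks. Both mitotic values lay above at 3 members, H2ac22, H2bc22 and H4bc24 (7.14%, against 27.7% of the genes). Because members share peaks, the count was repeated over the 15 loci, each by its strongest peak. Both mitotic values lay below at 10 loci, above at 0, and overlapped the asynchronous values at 5. The count was not made over loci of all genes, so it has no background share.

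**Figure D2:**
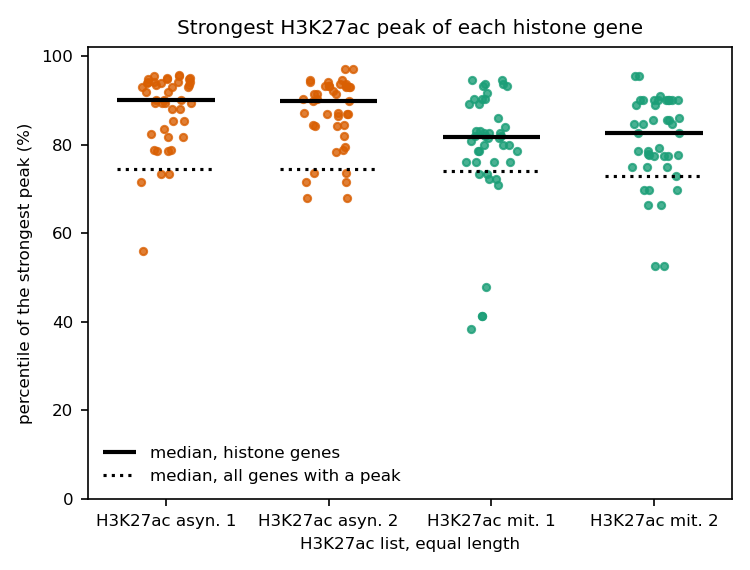
Percentile of the strongest H3K27ac peak of each histone gene (points) within 4 lists of equal length; solid bars are medians over the histone genes and dotted bars medians over all genes with a peak. The medians of the histone genes are 90.1 and 89.9 in the asynchronous lists and 81.6 and 82.5 in the mitotic lists, and the dotted medians stay between 73.0 and 74.6.

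Single loci differed between states by unequal amounts on the reduced lists. At H2ac12 and H2bc12 the percentile was 95.5 and 93.6 in asynchronous and 76.1 and 77.6 in mitotic cells. At H2ac8 and H2bc8 it was 88.0 and 87.0 against 72.1 and 52.6. At H4c8 it was 94.2 and 97.0 against 89.1 and 89.9, so the groups were closer there but did not overlap. At H2ac22 and H2bc22, a head-to-head pair, it was 78.5 and 67.9 against 93.8 and 95.6. There the mitotic values were the higher ones, and deposited folds were 13.8 and 10.5 in asynchronous and 13.7 and 15.3 in mitotic lists. No locus was tested singly, since 2 against 2 libraries cannot reach an exact permutation p below 0.333.

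Low values came from genes of several classes. Among the lower mean mitotic percentiles in the full lists were 58.5 at H4c3, 64.5 at H2ac8 and H2bc8, and 67.6 at H4c11. They were not shared by all H1 genes, as H1f3 had means of 96.1 in asynchronous and 89.4 in mitotic cells. H1f4 had percentiles of 71.4 and 86.0 in the full asynchronous lists and 48.0 in the first mitotic list. At H1f6, which encodes the testis linker histone, no H3K27ac peak overlapped the span in any list, and its score came from a peak at the neighbouring H4c3. Percentiles of that peak were lower in mitotic cells, with a mean of 58.5 against 83.6. H3c8 had the lowest asynchronous mean, 48.1, through the midpoint rule alone. In the second asynchronous list a peak of 6042 bp with a fold of 27.9 (percentile 98.0) overlapped H3c8, but its midpoint lay beyond the 2 kb. The genes of this paragraph were singled out after their values were seen.

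**Figure D3:**
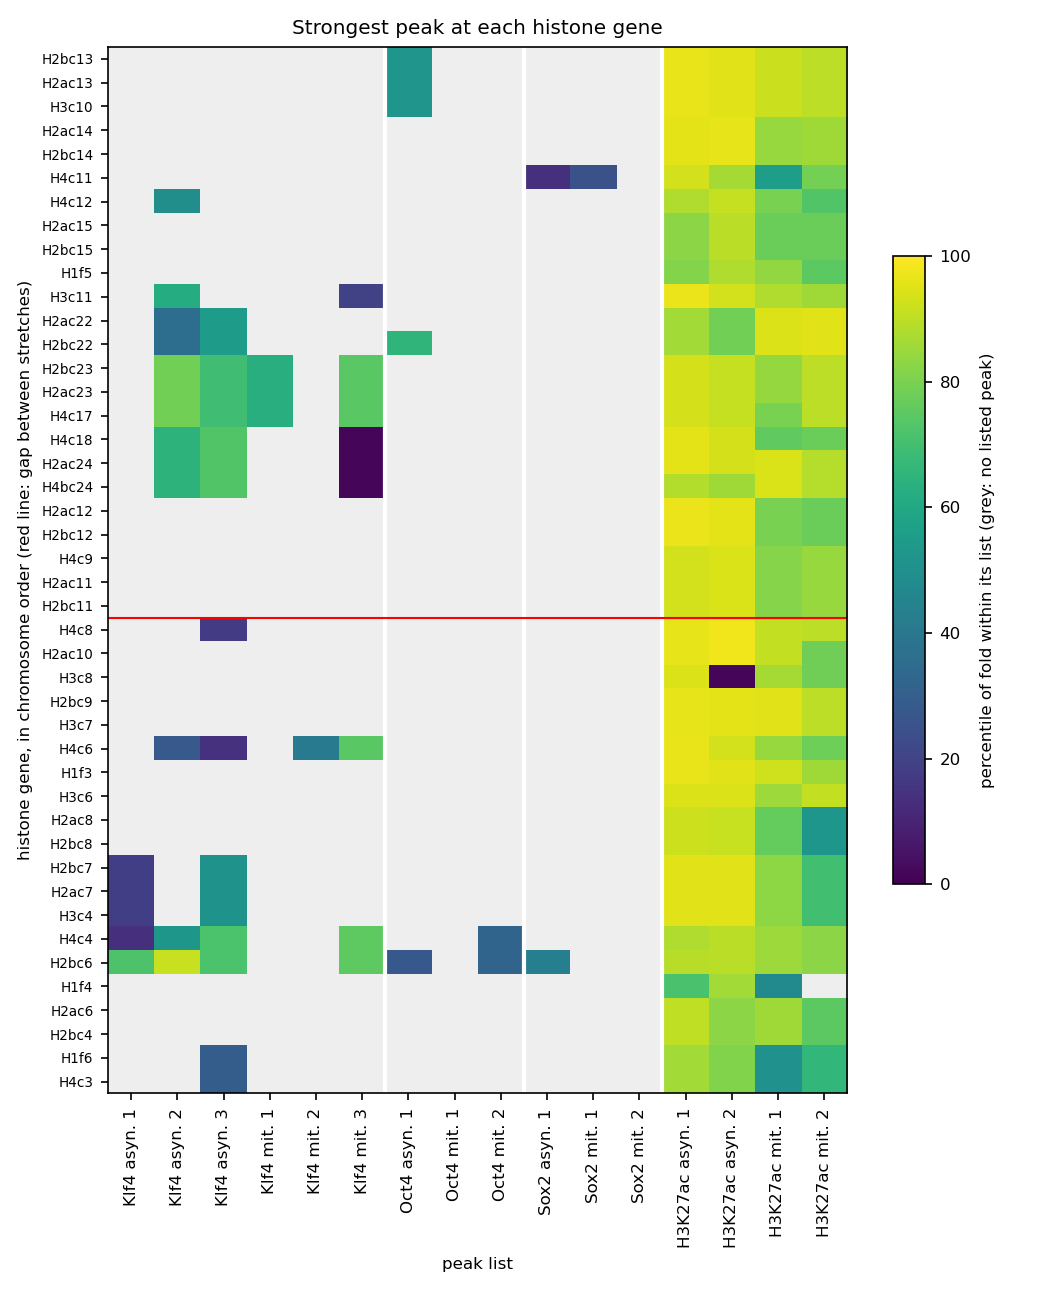
Percentile of the strongest peak of each of the 44 histone genes (rows, in chromosome order) within each of the 16 peak lists (columns); grey cells have no listed peak, and the red line marks the gap between the stretches. H3K27ac fills its 4 columns except for 1 cell, H1f4 in the second mitotic list, while Klf4 fills between 1 and 17 cells of a column, Oct4 between 0 and 5 and Sox2 between 0 and 2.

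H3K27ac peaks of the full lists covered less of the windows in both mitotic lists than in both asynchronous lists. The full lists held 47475 and 46491 peaks in asynchronous and 36526 and 30771 in mitotic cells. Window coverage was not taken over all genes. Peaks covered 47.4% and 44.0% of the member windows (182.7 kb in all) in the asynchronous lists and 35.7% and 33.4% in the mitotic lists. The mean difference was −11.2 percentage points (exact two-sided permutation p = 0.333, the smallest possible), and the groups did not overlap. Over the bodies of the 39 genes with spans up to 3 kb, coverage was 95.5% and 95.3% against 94.2% and 89.1%. At 200 bp into the gene, 97.6% and 95.1% of 41 start sites lay under a peak in asynchronous and 95.1% and 90.2% in mitotic cells. The start site itself was covered at 87.8% and 85.4% against 80.5% and 82.9% of members. At 1000 bp upstream the values were 80.5% and 78.0% against 56.1% and 53.7%, and at 1500 bp downstream 56.1% and 43.9% against 36.6% and 24.4%. Upstream values include peaks of the neighbouring gene wherever genes lie head to head. Among all genes with a peak, coverage at 1000 bp upstream was 23.3% and 21.7% against 18.3% and 19.6%, and at 1500 bp downstream 13.5% and 12.5% against 14.1% and 15.0%.

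**Figure D4:**
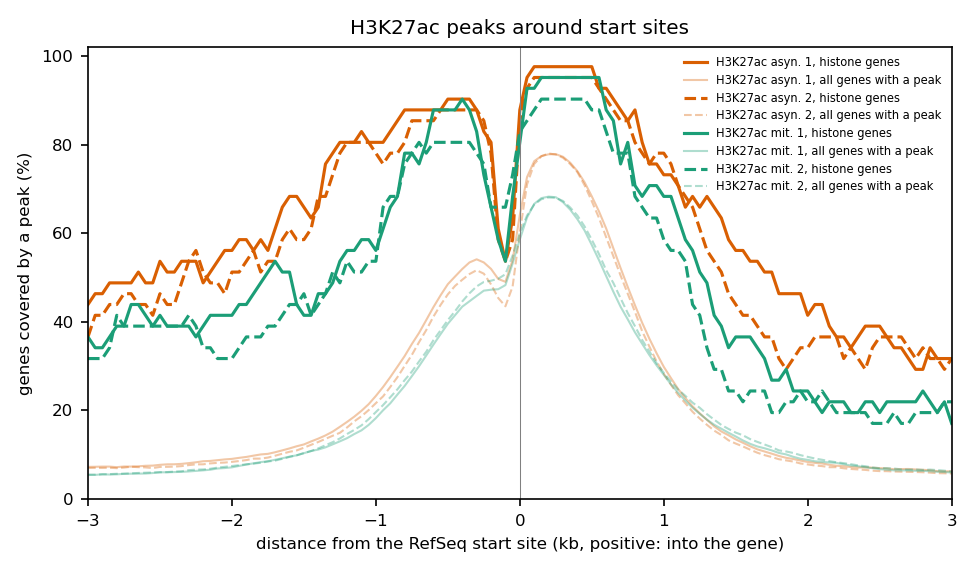
Percent of genes covered by an H3K27ac peak (vertical axis) at each distance from the RefSeq start site in kb (horizontal axis), for 41 histone genes (strong lines) and all genes with a peak in that list (faint lines). Coverage of the histone genes is highest 200 to 500 bp into the gene, at 97.6% in the first asynchronous list, dips just before the start site in each list, and is lower on both flanks in the mitotic lists.

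Peaks of all 4 lists merged into 44 H3K27ac regions at members, of which 35 were in both asynchronous lists. Of these 35, 26 were also in both mitotic lists (74.3%). Near protein-coding genes in general, 51.4% were kept in this way. Neighbouring regions lie at the same loci and are not independent, so these shares carry no test. Median peak widths at members were 1307 and 1286 bp in the asynchronous and 1285 and 1310 bp in the mitotic lists. Those of the whole lists were 787, 764, 754 and 890 bp. Whether width affects the kept share was not tested. No mitotic peak met 8 of the 35 regions (22.9%, against 34.2% near all genes). None of the 8 covered the start site of a histone gene. They lay inside or just beyond the long RefSeq spans of H2bc22, H2bc23 and H2bc6, apart from a flank of H2bc13. The largest folds among them were 11.0 and 11.1 at chr13:23594144-23595776, inside the H2bc6 span. A further region, chr13:23591108-23592544 in the same span, was listed in both mitotic and no asynchronous libraries, with folds of 3.97 and 5.48. With −log10 q of at least 5, or on lists of equal length, 3 regions were lost in place of 8. The mitotic-only count was 3 when a peak in either mitotic list sufficed, or without the first mitotic library.

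**Figure D5:**
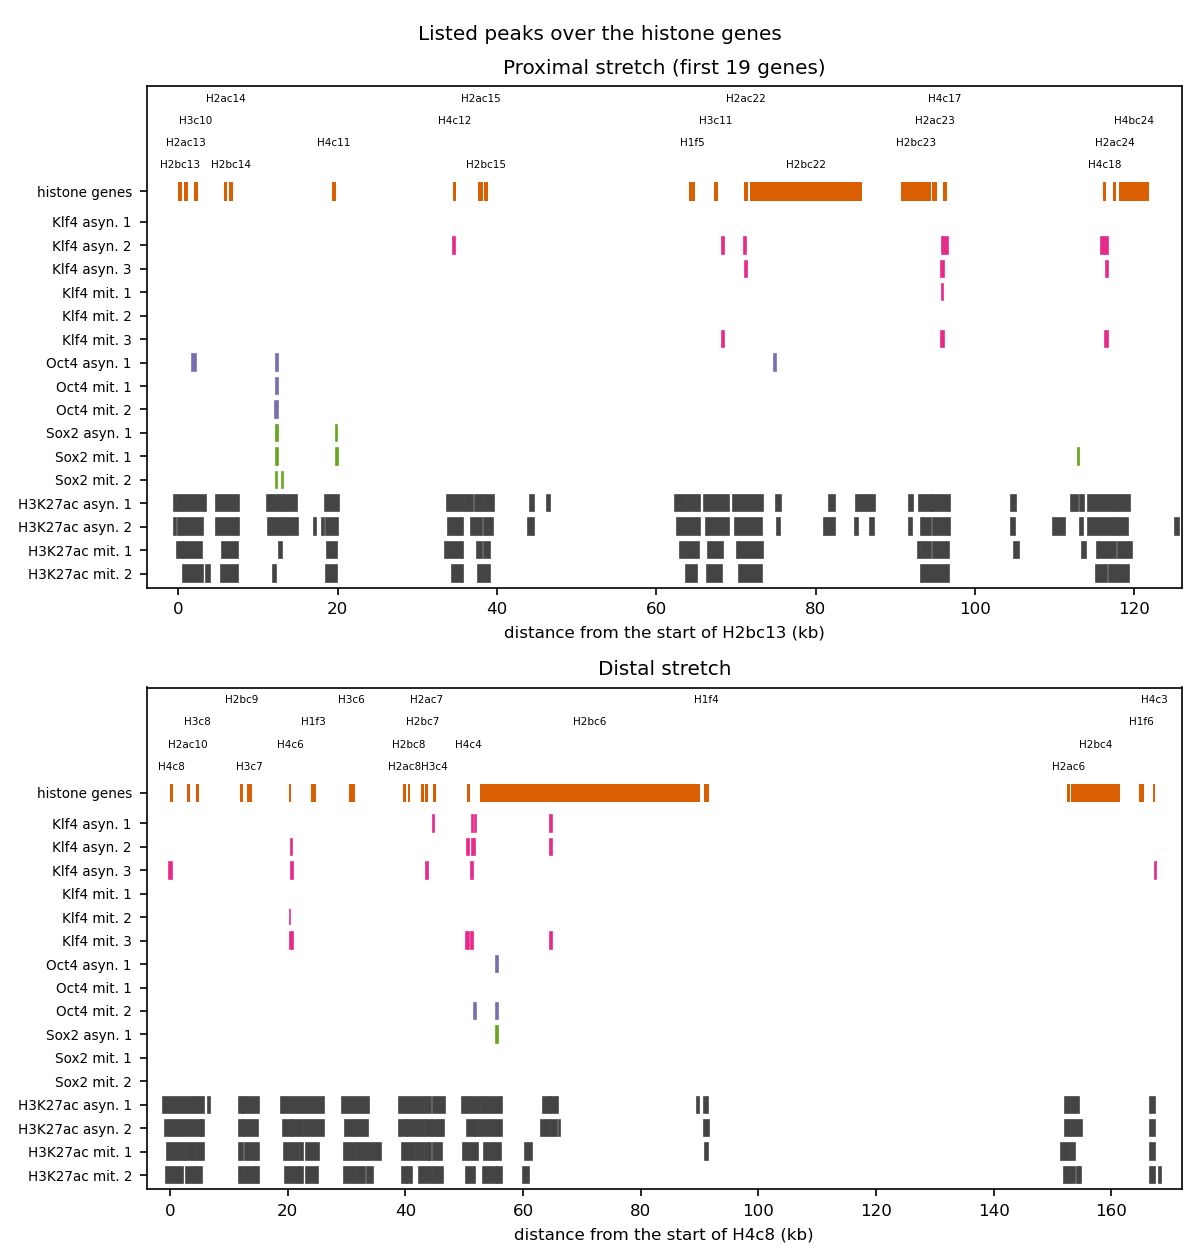
Listed peaks (bars) in each of the 16 lists over the first 19 genes of the proximal stretch (top) and the whole distal stretch (bottom); the horizontal axis is the distance in kb from the first base of H2bc13 or H4c8, and orange bars are gene spans. Peak bars have an outline so that the narrowest stay visible, which widens them slightly. H3K27ac peaks overlap 43, 43, 43 and 41 of all 44 gene spans (not H1f6 in any list, nor H2bc13 and H1f4 in the second mitotic list), and factor peaks are few and narrow.

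Klf4 was at a smaller share of the histone genes than of all genes in 5 of 6 lists. It was at 5, 13 and 17 of 44 genes in the asynchronous lists, where 26.4%, 42.1% and 40.7% of all genes had a peak. In the mitotic lists it was at 3, 1 and 10 genes, against 18.5%, 11.9% and 21.6% of all genes. The share was 26.5 ± 13.9% in asynchronous and 10.6 ± 10.7% in mitotic cells (SD, n = 3 each), and the groups overlapped. The difference of −15.9 percentage points had an exact two-sided permutation p of 0.2, where 0.1 is the smallest possible. All protein-coding genes differed by −19.1 points (exact permutation p = 0.1), and the member share less that of all genes was 3.15 points higher in mitotic lists (exact permutation p = 0.5). Replicate 3 of each state, the only pair from a shared project, gave 38.6% and 22.7%, also a difference of −15.9 points. On lists of equal length (3795 peaks) the direction turned. The asynchronous lists gave 2.27%, 2.27% and 0%, and the mitotic lists 6.82%, 2.27% and 13.6%. Less the share of all genes, these were −8.49, −7.84 and −13.8 points, then −6.13, −9.61 and 2.87. Members thus lay below all genes in each of these lists except the third mitotic one, and the turn rests on few members per list. In bulk chromatin, a peak present in fewer cells and a weaker peak in each cell cannot be told apart.

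Klf4 peaks lay at genes of every histone class, of H1 at 1 gene. The 15 merged Klf4 regions at members served 19 of 44 genes (51.9% of all genes had a Klf4 peak in some list), and 10 of them lay within 500 bp of a histone start site. All 15 overlapped an H3K27ac region and none a tRNA gene. The 4 Oct4 and 2 Sox2 regions at members also all overlapped an H3K27ac region. These positions were not counted for regions near all genes, so they have no background share. H4 genes with a Klf4 peak numbered 1, 5 and 6 of 9 in the asynchronous and 1, 1 and 4 in the mitotic lists. H2A genes numbered 1, 3 and 4 of 12 and 1, 0 and 2, and H2B genes 2, 4 and 5 of 13 and 1, 0 and 3. H3 genes numbered 1, 1 and 1 of 6 and 0, 0 and 1. H1 genes had one in 1 list only, H1f6 in the third asynchronous list, from a peak at H4c3. The most listed members were H2bc23, H2ac23, H4c17, H4c6, H4c4 and H2bc6, with 4 of 6 lists each. No member was in all 6, as 5.66% of all genes were. H4c18, H2ac24 and H4bc24 had 3. H3c11, the pair H2ac22 and H2bc22, and the neighbours H2bc7, H2ac7 and H3c4 had 2.

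At H4c17 Klf4 formed a peak over the promoter shown above. In the first mitotic list the peak ended before the start site, and in the other lists with a peak it ran past it. The second asynchronous list had a further peak there, chr13:21811844-21812367 (fold 2.95), from inside the gene to past its end. The region, chr13:21811491-21812367, also lay within 2 kb of the H2bc23 and H2ac23 pair. The deposited folds were 4.41 and 6.75 in the second and the third asynchronous lists and 5.19 and 5.95 in the first and the third mitotic lists. The first asynchronous and second mitotic lists had no peak there. The Klf-type match lay at chr13:21811663-21811670, inside the peak of all 4 lists. At H4c18 the match lay at chr13:21832272-21832279, inside peaks of 3 lists (folds 3.71, 7.16 and 3.10). As the promoters of H4c17 and H4c18 are copies, the deposited lists cannot show that their peaks are separate sites, and their matches are 1 sequence. At H4c6 the region chr13:23551351-23551922 crossed the start site and was listed by 2 asynchronous libraries at folds of 2.86 and 4.12 and by 2 mitotic libraries at 4.72 and 5.98. The peak of the second mitotic library (chr13:23551351-23551440) overlapped neither asynchronous peak and did not reach the start site. It was joined to the region through the peak of the third mitotic library. No Klf-type match was in the H4c6 promoter. Of the 4 members with a match, 4 had a Klf4 peak within 2 kb of the start site in some list, against 13 of 37 members without one (35.1%). Over all genes the shares were 58.5% and 34.6%. In H3c4 no Klf4 peak covered the match.

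The regions at H4c17 and H4c6 were the 2 of 7 Klf4 regions in at least 2 asynchronous lists that were also in at least 2 mitotic lists (28.6%, against 28.2% near all genes). At H4c6 only 1 mitotic list had a peak that overlapped an asynchronous one directly, so 1 of the 2 was kept through chained merging. A further 3 were in 1 mitotic list and 2 in none (28.6%, against 43.4%). These counts rest on few libraries. Without the third mitotic library, 0 were kept and 6 lost, and without the second or the third asynchronous library 0 were kept. With −log10 q of at least 5, 0 were kept and 1 lost. A Klf4 peak inside the H2bc6 span, chr13:23595588-23595975, had the highest percentile of the members in the second asynchronous list, although larger folds occurred elsewhere, such as 7.16 at H4c18 in the third. Its folds were 5.90, 5.70 and 5.81 in the first and the second asynchronous and the third mitotic lists, with a percentile of 91.4 in the second asynchronous list. That peak overlapped the H3K27ac region with folds of 11.0 and 11.1 that no mitotic H3K27ac list held.

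Set against other acetylated genes, the histone genes had Klf4 peaks at a lower share. Among genes with H3K27ac in all 4 lists, a Klf4 peak in any list lay at 19 of 43 members (44.2%) and at 78.7% of 9958 genes. Oct4 was at 14.0% and 19.8%, Sox2 at 4.65% and 15.9%, and any of the 3 factors at 53.5% and 81.2%. Histone genes are short, so their windows are smaller than those of most genes. With the same 2 kb window around the start site for every gene, the shares were 16 of 37 members (43.2%) and 68.7% of 6389 genes. Oct4 was at 10.8% of these members and 5.45% of the genes, and Sox2 at 2.70% and 2.46%. The 16 members are neighbours and share peaks, so these shares carry no test. Without the condition on H3K27ac, the same window held a Klf4 peak at 4, 12 and 15 of 41 members in the asynchronous lists, against 17.1%, 29.9% and 30.3% of all genes. In the mitotic lists it did at 3, 1 and 9, against 12.9%, 8.38% and 13% of all genes. For Oct4 the counts were 3, 0 and 1 (against 2.06%, 0.406% and 1.42%), and for Sox2 1, 1 and 0 (against 0.875%, 0.966% and 0.326%), asynchronous list first. For H3K27ac they were 40, 39, 40 and 38 (against 52%, 51.8%, 43.6% and 40.5%). In this window the Klf4 share of members was below that of all genes in 4 of 6 lists and above it in the third list of each state.

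Oct4 and Sox2 peaks at the histone genes were few in both states. Oct4 was at 5 genes in its asynchronous list (11.4%, against 7.25% of all genes) and at 0 and 2 in the mitotic lists (against 2.6% and 9.42%). The difference was −9.09 percentage points (exact two-sided permutation p = 0.333, the smallest that 1 against 2 libraries can give). At H3c10 the asynchronous Oct4 peak (chr13:21717430-21717886, fold 5.46) crossed the start site of the promoter shown above, and it lay within 2 kb of the H2bc13 and H2ac13 pair. No mitotic list had it. Over all lists 6 members had an Oct4 peak (13.6%, against 12% of all genes), and 0 had one in all 3 lists (against 1.98%). The Oct4 peak at H2bc22 (fold 6.23) was likewise in the asynchronous list alone. At H4c4 and H2bc6 a peak with fold 4.92 was in the second mitotic list alone, over a site where Klf4 was listed in the first and second asynchronous libraries. None of the 6 members with the octamer had an Oct4 peak within 2 kb of the start site, against 4 of 35 without it. Over all genes the shares were 6.69% with and 2.68% without the octamer.

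Sox2 was at 2 genes in its asynchronous list (against 5.58% of all genes) and at 1 and 0 in the mitotic lists (against 7.6% and 3.42%), a difference of −3.41 points (exact permutation p = 0.667). Its peak just past the end of H4c11 (chr13:21735490-21735711) had folds of 4.69 in the asynchronous and 4.66 in the first mitotic list. Its other peak, chr13:23586510-23586702 in the H2bc6 span, had a fold of 5.45 and overlapped an Oct4 region with folds of 4.70 in the asynchronous and 4.81 in the second mitotic list. Over all lists 2 members had a Sox2 peak (against 9.37% of all genes), and 0 had one in all 3 (against 2.46%). Of 3 asynchronous Oct4 regions 0 were kept (against 22.4% near all genes) and 2 lost (against 39.7%). Of 2 Sox2 regions 0 were kept (against 38.4%) and 1 lost (against 31.8%). With −log10 q of at least 5, or on lists of equal length, no member had an Oct4 or Sox2 peak in any list. Few of all genes had one either. The member share less that of all genes was never below −4.20 points for Oct4 or −3.76 for Sox2. An absence particular to the histone genes is therefore not shown.

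Between antibodies, the gap from H3K27ac to Klf4 was 73.5 percentage points of members in asynchronous and 88.3 in mitotic cells, with no overlap between libraries. Each member gap had an exact two-sided permutation p of 0.1, the smallest possible, and an adjusted p of 0.55 over the 11 pairs tested (Benjamini-Hochberg). All protein-coding genes showed a gap too, with H3K27ac at 60.5% and Klf4 at 36.4% in asynchronous cells. In mitotic cells these shares of all genes were 52.7% and 17.3%. Every H3K27ac list was longer than every Klf4 list. In asynchronous cells the Oct4 share less the Klf4 share was −15.2 points and the Sox2 share less the Klf4 share −22.0 points (exact permutation p = 0.75 and 0.5). The adjusted p was at least 0.55 in every pair, so none passed. In all, 23 of 44 members had a peak of some factor in some list (52.3%, against 54.2% of all genes). The other 21 had none, among them H2ac12, H3c7 and H2ac10, whose spans the high H3K27ac peaks named above overlapped.

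Most histone genes outside the member set, and most partner genes, had an H3K27ac peak. The 21 other canonical histone genes were taken from every chromosome. They include genes of this same cluster above the window, such as H1f2 and H3c3. Over the 4 H3K27ac lists, 60.7%, 60.3%, 54.3% and 51% of all protein-coding genes had a peak. Of the 21 genes, 20, 20, 20 and 19 had an H3K27ac peak over the 4 lists. So did 11, 11, 11 and 10 of 11 replication-independent variants such as H2az1, and 18, 18, 18 and 17 of 18 genes for histone gene regulation and mRNA processing, such as Npat and the stem-loop binding protein gene Slbp. All 10 histone chaperone genes had one in each list. Klf4 was at 5, 12 and 10 of the 21 other canonical genes in the asynchronous and at 6, 1 and 8 in the mitotic lists. The shares were 23.8%, 57.1%, 47.6%, 28.6%, 4.76% and 38.1%, above the share of all genes in 4 of 6 lists. No test compared these genes with the members, and peak strength was not compared. No Sox2 peak lay at those 21 genes in any list, where 5.58%, 7.6% and 3.42% of all genes had one (asynchronous list first). An Oct4 peak lay at 3, 0 and 0 of the 21, against 7.25%, 2.6% and 9.42% of all genes.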

How the data were processed

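ChIP-seq peak lists of 16 stem cell libraries were used, while the list of a cell mix and 7 inputs were not analysed here. The tools named per the submitters' processing notes were cutadapt 1.8.1, Bowtie2 2.2.5 (mm10), deepTools 2.3.6 and MACS2 2.1.1. The deposited lists were called per library. For each peak the authors gave a fold (a ratio over background) and its significance as −log10 p and −log10 q, with no −log10 p below 5. Read depth was unknown, so a list's length stood in for its yield. Genes came from RefSeq GRCm38.p6, where all 44 members were found by symbol or older name, and 41 had a promoter sequence.

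A gene had a peak when a midpoint lay in its span or within 2 kb. Peaks sharing at least 1 bp were merged into regions. The asynchronous set needed a peak in at least 2 of 3 libraries for Klf4, both for H3K27ac, and the single library for Oct4 and Sox2. Such regions were kept if at least 2 mitotic libraries had a peak and lost if none had, while mitotic-only regions had at least 2 mitotic and no asynchronous peaks. States and antibodies were compared over libraries by exact two-sided permutation tests (Python 3.11.15, numpy 2.4.6, pandas 2.3.3, scipy 1.17.1, figures with matplotlib 3.10.9). The functions were tested on simulated data. Named genes were members with a factor peak (the 12 with most lists if more, and for Klf4 those tied with them). The 8 with the highest asynchronous H3K27ac percentile and those nearest the window limits were also named. So were any whose H3K27ac presence differed between all lists of both states (none) and any with no peak (none). The members and lists were chosen with earlier results of these data known. Alternatives were a −log10 q of at least 5, lists of equal length, other windows and overlap rules, merged loci, omission of each library, a single project, and a replicate block. Start site windows, members of at most 3 kb, percentiles on lists of equal length, locus counts, overlap with the span itself, direct overlap within regions and matches inside peaks were added after seeing the data.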

Additional observations from a re-analysis of the deposited data

How the results depend on the processing

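Few libraries, unknown depth and near-identical gene copies limit these values, and 0.1 was the smallest exact permutation p that any state difference allowed. Of the alternative values, 212 kept their direction or, for a count, stayed within 1.5 times, 10 reversed, 13 were 0, and 30 counts moved further. For the others the cause was not tested.

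On lists of equal length, the mitotic minus asynchronous difference in members with a peak was 6.06 points for Klf4 and 0 for Oct4, Sox2 and H3K27ac, and less all genes 0.265 for Oct4 and 0.304 for Sox2. With −log10 q of at least 5 it was 0 for Oct4, Sox2 and H3K27ac, and less all genes 0.596 for Oct4. For H3K27ac it was 12.5 with midpoints inside the span and 0 over merged loci. For Klf4 less all genes it was −0.870 within 5 kb, −1.61 over loci and −0.304 in start site windows. Sox2 less Oct4 was 0 in both states under the q limit and on equal lists, and in mitosis 1.14 within 5 kb and 0 over loci. Without single libraries, Klf4 less all genes ranged from −0.771 (without the third mitotic) to 7.06, and H3K27ac from −2.27 to 0 (without the second mitotic).

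Region counts moved as follows. Under the q limit Klf4 had 0 kept and 1 lost, Oct4 and Sox2 0 lost, and H3K27ac 3 lost. On equal lists Klf4 had 0 kept, 0 lost and 2 mitotic-only, Oct4 and Sox2 0 lost, and H3K27ac 3 lost. When any mitotic library sufficed, 5 Klf4, 1 Oct4 and 1 Sox2 regions were kept, and 1 Oct4 and 3 H3K27ac regions were mitotic-only. Without single libraries, kept ranged from 0 to 2 for Klf4, 0 to 1 for Oct4 and 0 to 1 for Sox2, lost from 0 to 6 for Klf4 and 1 to 2 for Sox2, and mitotic-only from 0 to 1 for Oct4 and 1 to 3 for H3K27ac.

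With a replicate block for H3K27ac, pairing equal numbers, the difference stayed at −1.14 points for members, 6.71 less all genes and −11.2 for window coverage (exact sign-flip p of 1, 0.5 and 0.5), and no call changed. The numbers come from different projects, and the deviations of same-numbered libraries had r = −0.0173 over 9958 genes, so they do not pair the samples. No paired analysis was possible for the factors because no label links their numbers across states.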

Other observations

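Few vomeronasal receptor genes of the same window had H3K27ac. Of 36 vomeronasal receptor genes, which serve pheromone sensing, 1, 1, 0 and 0 had a peak over the 2 asynchronous and 2 mitotic lists, and Vmn1r208 was the gene in both asynchronous lists. No Klf4, Oct4 or Sox2 peak lay at any of the 36. Of 9 other non-histone genes, 6, 5, 4 and 3 had an H3K27ac peak (66.7%, 55.6%, 44.4% and 33.3%, against 60.7%, 60.3%, 54.3% and 51% of all genes), with Abt1, Zfp184 and Zfp322a in all 4 lists. Of 79 transfer RNA genes in the window, 58, 54, 33 and 38 had an H3K27ac peak within 2 kb. The shares were 73.4%, 68.4%, 41.8% and 48.1%.

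Factor peaks between the histone genes, beyond the 2 kb windows, included 2 sites with many lists, singled out after their values were seen. At chr13:21727867-21728208, in the gap between H2bc14 and H4c11, Oct4 was in 3 of 3 lists and Sox2 in 3 of 3, with no Klf4 peak. Asynchronous list first, the Oct4 folds were 6.99, 4.60 and 8.63 and the Sox2 folds 7.13, 8.33 and 4.38. The nearest member lay about 5.5 kb away. At chr13:21865371-21866111, 28 kb beyond H4bc24, Klf4 was in 6 of 6 lists, Sox2 in both mitotic lists and Oct4 in the second mitotic list. No such site with all lists of a factor lay at a member.

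Of the genes for histone gene regulation and mRNA processing, Pou2f1, which encodes the octamer-binding factor Oct1, was the only 1 with an Oct4 or Sox2 peak, in the asynchronous Oct4 and both mitotic Sox2 lists. Just outside the window, H1f2 had an H3K27ac peak midpoint in its span or within 2 kb in the second mitotic list alone (fold 5.19). Overlap of wide peaks with its span was not examined, so absence of H3K27ac in the other lists is not shown.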
